A study of Mus musculus with 5 samples.

Results

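Gelsolin, 4 S100 proteins and 4 annexins were followed across a time course of CD8 T cell activation. The S100 proteins were S100a4, S100a6, S100a10 and S100a11, and the annexins were Anxa1, Anxa2, Anxa5 and Anxa6. All belong to calcium-binding or actin-severing protein families typical of effector T cells. All probe sets annotated to these 9 genes and to no other gene were taken, which gave 11 of the 12422 probe sets on the array that were not controls, for 8 of the 9 genes and of 8251 genes named on the array. The probe set listed for S100a11 also lists other genes, so it was not used. The 9 genes had been chosen partly on their signals on these arrays, with the 72 h differences in view, so the differences at 72 h, and any count of limma calls among them, are a description and no evidence for the choice. The cells were CD44-low CD8 T cells from lymph nodes of OT-1 T cell receptor transgenic C57BL/6 mice 6 to 8 weeks old, stimulated in culture on latex microspheres that carried the receptor's peptide on H-2Kb (Ag) and B7-1, which engages CD28 on the T cell. Every culture, whatever its group, also received human IL-2. The groups were Ag-B7 with murine IL-21 for 72 h (1 array), Ag-B7 with IL-21 for 48 h (2 arrays) and Ag-B7 alone for 48 h (2 arrays), each array labelled as a biological replicate. Whether replicates came from separate mice or cultures is not stated, and p-values therefore rest on a spread between arrays that may be technical. All cells carry 1 transgenic receptor and met 1 defined stimulus on beads rather than on antigen-presenting cells. Cells kept for 72 h in the absence of IL-21 were not analysed here, and time and a later effect of IL-21 cannot be told apart on the 72 h array.

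S100 proteins are small EF-hand proteins that pair up. Most of them, though not S100a10, bind calcium and then attach to target proteins. Annexins bind acidic membrane lipids in the presence of calcium, and S100a10 forms a complex with Anxa2 at the inner face of the plasma membrane, where the scaffold protein Ahnak joins it. Gelsolin cuts and caps actin filaments when calcium is present, and so acts on the cell cortex that T cells rebuild when they become motile effector cells. In T cells these genes are known as part of the effector and memory programme, and S100a4 and S100a6 are often used as marks of antigen-experienced cells.

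Promoters were matched by symbol in the RefSeq table of the GRCm38.p6 build, which held 9 promoters for 7 of the 9 genes, 3 of them for Gsn. The table had S100a11 and Anxa1 as well, but no entry was matched for S100a10 or Anxa6. Printed here are those of the 4 genes with the largest differences at 72 h (for Gsn, the most upstream of its 3 starts) and that of Anxa5, each running from 250 bases before to 50 bases after the start of transcription, 5′ to 3′ in the direction of the gene. Both strands were searched for 4 motifs. That of AP-1, the site of Fos and Jun factors, was TGANTCA. That of the STAT factors was TTCNNNGAA. The others were the CArG box, the site of serum response factor, and the TATA motif TATAAA. Capitals mark every match, and no marked matches overlap.
Gsn promoter, chr2:35256109-35256408, plus strand: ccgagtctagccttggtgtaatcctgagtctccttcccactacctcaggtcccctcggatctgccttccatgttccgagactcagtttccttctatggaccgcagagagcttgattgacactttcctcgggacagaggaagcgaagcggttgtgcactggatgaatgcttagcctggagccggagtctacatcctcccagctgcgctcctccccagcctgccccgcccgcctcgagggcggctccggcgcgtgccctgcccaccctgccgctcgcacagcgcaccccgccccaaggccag
S100a4 promoter, chr3:90603520-90603819, plus strand: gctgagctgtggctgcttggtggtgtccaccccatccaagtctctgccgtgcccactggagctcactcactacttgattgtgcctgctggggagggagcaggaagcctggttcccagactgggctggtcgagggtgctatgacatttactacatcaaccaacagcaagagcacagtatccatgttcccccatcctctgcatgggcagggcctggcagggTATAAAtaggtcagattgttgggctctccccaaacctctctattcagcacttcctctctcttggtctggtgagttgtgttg
S100a6 promoter, chr3:90612644-90612943, plus strand: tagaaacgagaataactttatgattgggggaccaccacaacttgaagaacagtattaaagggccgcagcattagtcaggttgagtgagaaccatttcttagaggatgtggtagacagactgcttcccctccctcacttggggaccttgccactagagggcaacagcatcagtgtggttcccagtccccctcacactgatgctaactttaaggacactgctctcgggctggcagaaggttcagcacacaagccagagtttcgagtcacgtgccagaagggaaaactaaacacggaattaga
Anxa2 promoter, chr9:69453433-69453732, plus strand: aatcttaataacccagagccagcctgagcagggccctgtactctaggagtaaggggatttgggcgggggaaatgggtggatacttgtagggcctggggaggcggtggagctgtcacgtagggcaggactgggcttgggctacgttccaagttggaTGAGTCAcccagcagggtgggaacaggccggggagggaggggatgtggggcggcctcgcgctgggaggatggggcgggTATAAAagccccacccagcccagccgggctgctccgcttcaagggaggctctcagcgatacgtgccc
Anxa5 promoter, chr3:36475838-36476137, minus strand: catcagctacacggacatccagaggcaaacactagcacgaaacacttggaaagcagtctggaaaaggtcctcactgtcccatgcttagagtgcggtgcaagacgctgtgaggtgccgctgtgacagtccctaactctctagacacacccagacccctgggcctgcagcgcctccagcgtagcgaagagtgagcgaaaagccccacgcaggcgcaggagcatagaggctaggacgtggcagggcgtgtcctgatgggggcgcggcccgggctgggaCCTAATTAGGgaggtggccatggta
The S100a4 promoter held a TATAAA that began 31 bases before the start, a motif found in 13.6% of all 32851 promoters of that length. The Anxa2 promoter held a TGANTCA match at -95 and a TATAAA at -17, and TGANTCA was found in 7.81% of all promoters. The Anxa5 promoter held a CArG box that began at base 26 after the start, against 1.63% of all promoters. None of the 9 promoters held the STAT motif, which 8.30% of all promoters did, and the S100a6 promoter and all 3 Gsn promoters held none of the 4 motifs. Of the promoters not printed, that of S100a11 held TGANTCA at -136 and -38, and that of Anxa1 held TATAAA at -32. These matches are a description of the letters in these windows only.

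Values below are probe set signals after quantile normalisation of the 5 arrays, with an offset of 1.53 signal units included. A level compares arrays for the same probe set, and probe sets are not ranked by level. Before scaling, the trimmed mean signal was 65.9 on the 72 h array, 105 and 106 on the 48 h arrays with IL-21, and 75.4 and 65.3 on the 48 h arrays without it. A probe set was kept for testing when its mean over the arrays exceeded the 40th percentile, a signal of 12.98, and 8 of the 11 probe sets, for 7 genes, were kept. As a guide to dim signals, 22 genes of other tissues such as albumin and insulin had medians between 6.69 and 12.0 on the 5 arrays, and their 90th percentile lay between 38.0 and 68.4. CD8 T cell markers were present on every array, with 6 of 7 listed markers on it and all 6 kept. Their summed signal was 7539 at 72 h, 4775 and 5005 at 48 h with IL-21, and 4693 and 4455 at 48 h without it. Between 72 and 48 h with IL-21, 5 of the 6 had a positive difference and 1, Cd8a, a negative one. Cd8a had 506 at 72 h, 690 and 753 at 48 h with IL-21, and 414 and 401 at 48 h without it. For Cd8b1 the log2 difference was 0.12, and for Cd3d and Cd3g it was 1.40 and 1.78.

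In bulk RNA, more cells of a type and more RNA per cell cannot be told apart, which holds for each difference that follows. Gsn (Entrez Gene 227753), which encodes gelsolin, had a signal of 704 on the 72 h array. On the 48 h arrays with IL-21 it was 16.4 and 55.7, and on those without IL-21 it was 28.6 and 64.9. The 72 h array lay 10.8-fold above the highest of the 4 arrays at 48 h, while the 48 h groups overlapped. The log2 difference between 72 and 48 h with IL-21 was 4.54 (SE 0.78), the third highest of 7453 probe sets. It was 3.68 without replicate 1 and 5.35 without replicate 2 of the 48 h arrays with IL-21. On the first replicates at 48 h the signal lay below the 90th percentile of the genes of other tissues on the same array (68.4 with IL-21 and 38.0 without), and on the second replicates above it (40.4 with IL-21 and 40.8 without), so the size of the difference is uncertain.

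S100a4 (Entrez Gene 20198) encodes a protein that binds non-muscle myosin and is abundant in motile and memory cells. Its signal was 180 on the 72 h array, 11.4 and 22.8 on the 48 h arrays with IL-21, and 11.2 and 23.6 on those without it. The 72 h array was 7.64-fold above the highest 48 h array. Within either 48 h group the second replicate was about double the first. The log2 difference at 72 h was 3.48 (SE 0.61), between 3.00 without replicate 1 and 3.92 without replicate 2 of the 48 h arrays with IL-21. All 4 signals at 48 h lay below the 90th percentile of the genes of other tissues on the same array. Those of the second replicates lay above the medians of these genes (10.2 with IL-21 and 6.69 without). On the first replicates the signal lay below that median with IL-21 (12.0) and just above it without (10.6).

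S100a6 (Entrez Gene 20200), or calcyclin, is a partner of the ubiquitin ligase adaptor Cacybp. Its signal was 2066 on the 72 h array. It was 10.4 on replicate 1 and 268 on replicate 2 of the 48 h arrays with IL-21, and 5.76 on replicate 1 and 193 on replicate 2 of those without it. The arrays therefore fell into 3 levels, with the 72 h array highest, both second replicates between and both first replicates below the median of the genes of other tissues (12.0 with IL-21 and 10.6 without). The log2 difference of 5.29 (SE 2.44) between 72 and 48 h with IL-21 was the highest of the 7453 probe sets, but its SE was the largest among these genes and it was not among the probe sets called. It was 2.95 without replicate 1 and 7.57 without replicate 2 of the 48 h arrays with IL-21. Against the nearest single array at 48 h the 72 h signal was 7.72-fold higher.

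S100a10 (Entrez Gene 20194), the annexin A2 light chain, had 2 probe sets. The brighter probe set had a signal of 2863 on the 72 h array, 709 and 1189 on the 48 h arrays with IL-21, and 659 and 844 on those without it. The 72 h array was 2.41-fold above the highest 48 h array. The log2 difference was 1.64 (SE 0.32), between 1.29 without replicate 1 and 2.05 without replicate 2 of the 48 h arrays with IL-21. The dimmer probe set gave 38.4 at 72 h, 31.1 and 26.1 at 48 h with IL-21, and 6.88 and 24.8 at 48 h without it, a log2 difference of 0.43 (SE 0.75) between 72 and 48 h. Its suffix marks a set for which the maker's probe selection rules were relaxed, and its difference was -0.04 in the unscaled values.

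Anxa2 (Entrez Gene 12306), which binds S100a10 and organises membrane and actin at the cell cortex, had a signal of 2087 on the 72 h array. It was 340 and 431 on the 48 h arrays with IL-21 and 477 and 597 on those without it. All 5 arrays were ordered by group without overlap, with 72 h highest and 48 h with IL-21 lowest. The 72 h array was 3.49-fold above the highest 48 h array, and the log2 difference to 48 h with IL-21 was 2.45 (SE 0.22).

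Anxa5 (Entrez Gene 11747) is the annexin whose binding to phosphatidylserine is used to detect dying cells. Its signal was 431 on the 72 h array, 167 and 177 on the 48 h arrays with IL-21, and 182 and 224 on those without it. Anxa6 (Entrez Gene 11749), an annexin with a doubled core that links membranes to the cytoskeleton, had a signal of 1334 on the 72 h array, 592 and 589 on the 48 h arrays with IL-21, and 609 and 538 on those without it. Both had a 72 h array above all 48 h arrays, 1.92-fold above the highest for Anxa5 and 2.19-fold for Anxa6. Their log2 differences were 1.32 (SE 0.21) and 1.18 (SE 0.15), and in the unscaled values, where the median of all probe sets was -0.58, they were 0.62 for Anxa5 and 0.55 for Anxa6. With limma both were called at an adjusted p under 0.05 in the normalised values, but not in the unscaled values or with arrays centred on their medians.

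Anxa1 (Entrez Gene 16952), known as a mediator that limits inflammation, had 3 probe sets and none of them passed the filter. Their signals lay between 1.71 and 7.38 on all 5 arrays. The brightest of them had 6.73 at 72 h, 7.38 and 5.66 at 48 h with IL-21, and 3.17 and 2.69 at 48 h without it. With every probe set tested, its 48 h difference of 1.15 (SE 0.38) had an adjusted p of 0.916 in limma, and at such signals a difference cannot be told from background. The suffixes of the Anxa1 sets mark probes shared by a sequence family or an incomplete probe set, so their transcript is uncertain.

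**Figure D1:**
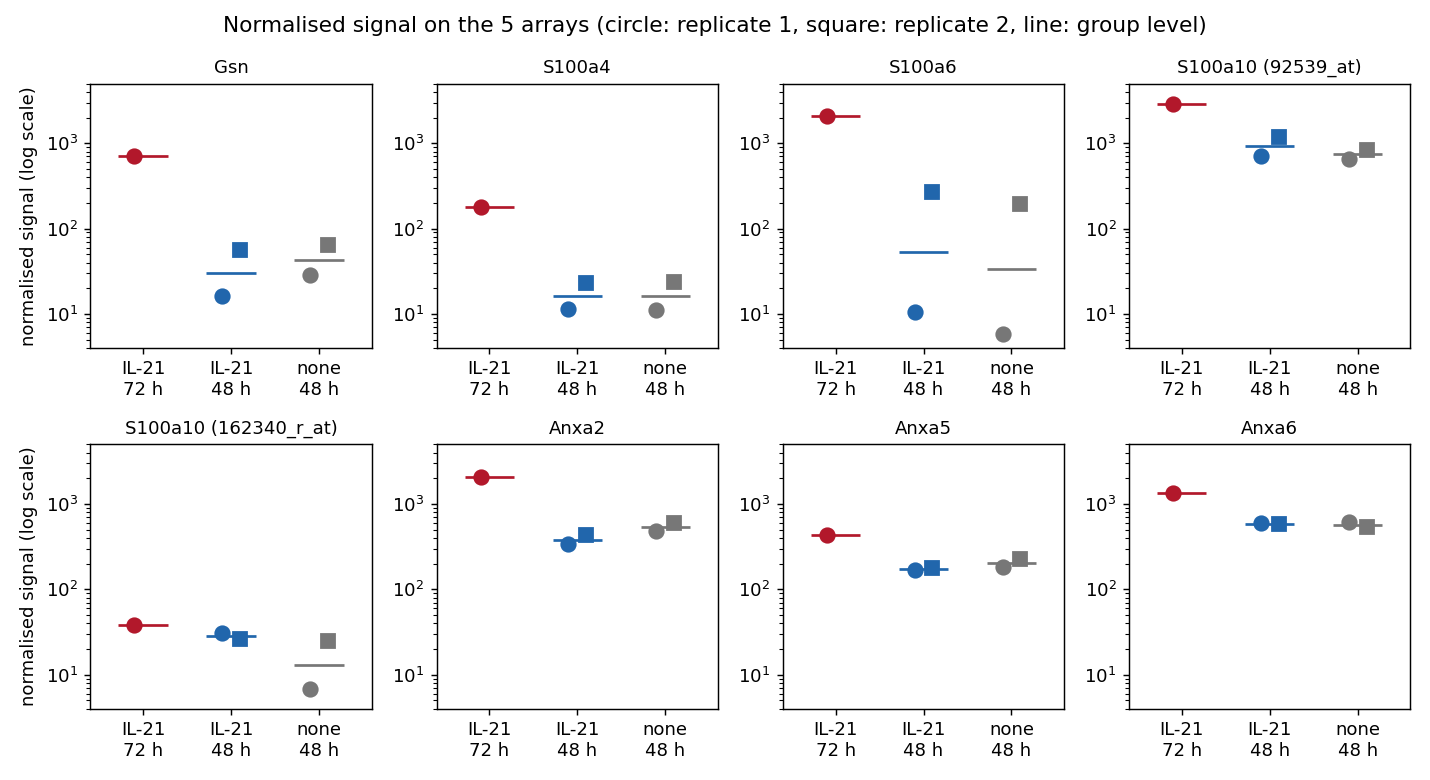
Normalised signal (log axis) of the 8 probe sets that passed the filter, in 1 panel each, for 72 h with IL-21, 48 h with IL-21 and 48 h without it; circles are replicate 1, squares replicate 2 and lines the group level. In all 8 panels the 72 h array is highest, and the S100a6 panel shows the second replicates (268 and 193) far above the first (10.4 and 5.76).

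Set side by side at 72 h, all 8 kept probe sets had a positive difference, as did 49.3% of the 7453 probe sets. In all 8 the 72 h array lay above each of the 4 arrays at 48 h, as in 30.4% of all probe sets. In limma 6 of the 8 were called higher at an adjusted p under 0.05 and 0 lower, where 4.04% of all probe sets were called higher and 11.2% in either direction. Of the 8, 4 were called in the unscaled values, 4 with arrays centred on their medians and 7 with arrays scaled on the hybridisation controls. That last scaling added S100a6, with an SE of 0.39 against 2.44 in the normalised values. Its 48 h signals with IL-21 were 12.2 and 354 before scaling, a spread that this smaller SE does not reflect. Since the genes were listed with the 72 h values known, nothing is read from these counts. The median log2 difference was 2.04 over the 8 probe sets and -0.01 over all. The 2 not called were S100a6 and the dimmer S100a10 probe set. The comparison sets 1 array against 2 and assumes that the 72 h array varies like the others. No call held, and 0 of the 7453 probe sets passed, without either 48 h array with IL-21 or without the variance trend, which left 1703, 1748 and 1843 probe sets at an unadjusted p under 0.05.

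The second question was what IL-21 added at 48 h. The same 48 h arrays with IL-21 serve in both comparisons. Of the 8 kept probe sets, 4 were higher and 4 lower with IL-21 (48.8% of all probe sets were higher), and the median log2 difference was 0.02, against -0.01 over all probe sets. None passed limma at an adjusted p under 0.05, with the smallest at 0.967, where 0% of the 7453 probe sets did. At an unadjusted p under 0.05 there was 1, Anxa2, where 4.39% of all probe sets reached it.

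Anxa2 and Anxa5 were lower with IL-21 on both arrays than on both arrays without it, though not past the test. For Anxa2 the log2 difference was -0.48 (SE 0.18, adjusted p = 0.967 in limma), and it was -0.49 within replicate number 1 and -0.47 within number 2. For Anxa5 it was -0.23 (SE 0.17, adjusted p = 0.978 in limma). Both differences changed sign in the unscaled values, to 0.12 and 0.34, where the median of all probe sets was 0.57. The dimmer S100a10 probe set was higher without overlap (1.13, SE 0.61), from a low signal on 1 array. These were 1 of 8 higher and 2 of 8 lower without overlap, where 15.9% of all probe sets were higher, 17.9% lower and 33.8% either.

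The other differences at 48 h were smaller than or close to their SE. They were -0.51 (SE 0.64) for Gsn, -0.01 (SE 0.50) for S100a4, 0.66 (SE 2.0) for S100a6, 0.30 (SE 0.26) for the brighter S100a10 probe set and 0.04 (SE 0.12) for Anxa6, with adjusted p between 0.985 and 0.998 in limma. For S100a6 the difference was -1.87 without replicate 1 and 3.21 without replicate 2 of the arrays without IL-21. It was 3.00 without replicate 1 and -1.65 without replicate 2 of those with IL-21. Each of these fits left the replicate numbers unbalanced between the groups, and S100a6 differed strongly between them. Within replicate number 1 the S100a6 difference was 0.85 and within number 2 it was 0.47. For Gsn these were -0.80 and -0.22. No label pairs same-numbered arrays.

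**Figure D2:**
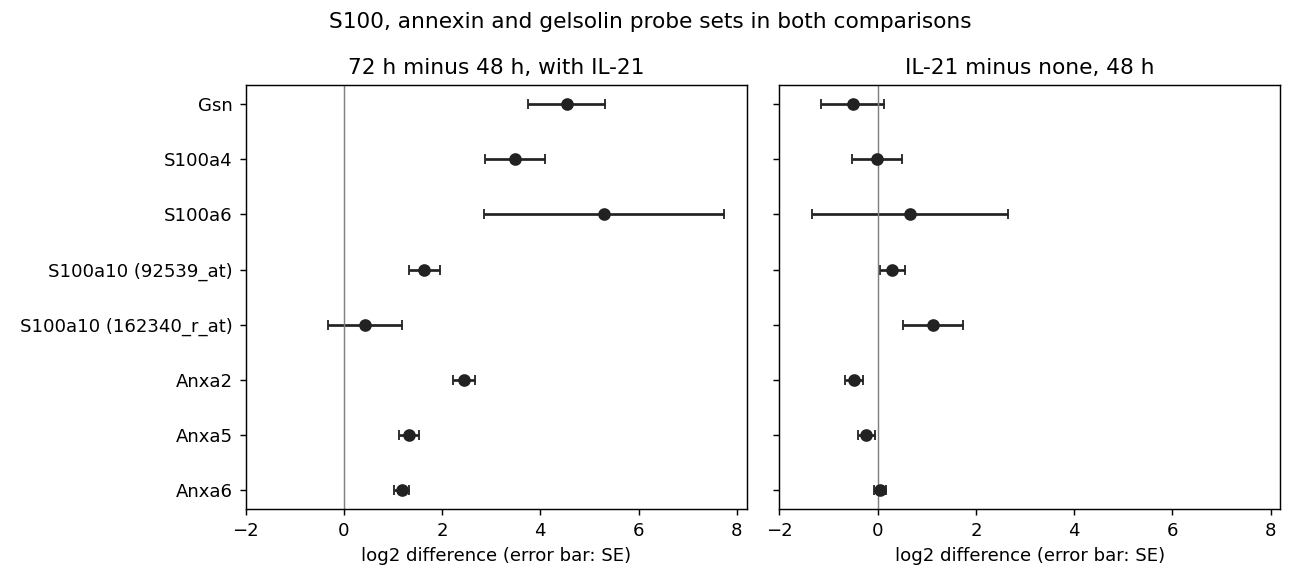
Log2 differences (points) with their standard errors (bars) for the 8 kept probe sets, at left 72 h minus 48 h with IL-21 and at right IL-21 minus none at 48 h. At left all points lie above 0, from 0.43 to 5.29, and at right they lie on both sides of 0, from -0.51 to 1.13.

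The spread between replicate numbers at 48 h was itself uneven among these genes. For S100a6, replicate 2 exceeded replicate 1 by 4.69 on the log2 scale with IL-21 and by 5.07 without it, the highest of the 7453 probe sets in either group. Both are set against replicate 1 signals below the median of the genes of other tissues, so their size is uncertain. For Gsn the excess was 1.76 with IL-21 and 1.18 without, and for S100a4 it was 1.00 and 1.07. Anxa2 had 0.34 and 0.33, the brighter S100a10 probe set 0.75 and 0.36, and Anxa5 0.09 and 0.30. Anxa6 lay at -0.01 with IL-21 and -0.18 without, and the dimmer S100a10 probe set at -0.26 and 1.85. In 6 of the 8 probe sets replicate 2 was higher in both groups, where 30.5% of all probe sets had that order. What a replicate number stands for is not stated in the labels, and its part in these values was not tested.

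Over all probe sets, 14 exceeded 4-fold between replicate 2 and replicate 1 in both 48 h groups, and S100a6 led them. In the other direction, 6 were over 4-fold lower in replicate 2 in both groups. On 12 of the 14 the 72 h array was above all 4 arrays at 48 h, as it was for 30.4% of all probe sets. Besides S100a6, and chosen after their values were seen, these included Lgals3, which encodes galectin-3, with a signal of 1122 at 72 h, 26.1 and 253 at 48 h with IL-21, and 25.9 and 243 at 48 h without it. Bcl3, an IkB-family coregulator, had 310 at 72 h, 9.86 and 135 at 48 h with IL-21, and 10.2 and 131 at 48 h without it. Across the 7453 probe sets the replicate difference without IL-21 and the 72 h difference with IL-21, which share no array, had a Pearson r of 0.145, given as a description, since genes are not independent replicates and quantile normalisation ties the arrays.

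**Figure D3:**
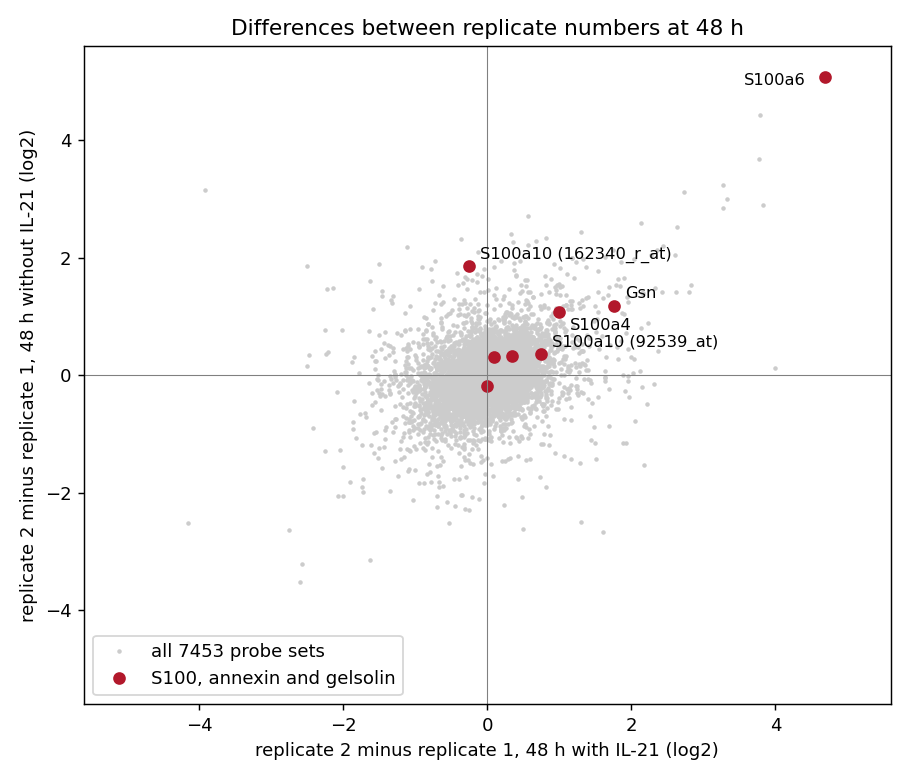
Log2 difference between replicate 2 and replicate 1 at 48 h, with IL-21 on the horizontal axis and without it on the vertical axis, for all 7453 probe sets (grey) and the 8 probe sets described here (red). S100a6 stands at 4.69 and 5.07, beyond every other probe set on both axes, and Gsn at 1.76 and 1.18.

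Of 10 other S100 genes on the array only S100a13, S100a14 and S100a3 passed the filter, with log2 differences at 72 h of 1.42 (SE 0.25), 0.74 (SE 0.39) and 0.40 (SE 0.32) for their brightest probe sets. S100a13, which takes part in the export of signalling proteins that lack a signal peptide, was the 1 of the 3 genes called higher (adjusted p = 0.0242 in limma), and its 3 kept probe sets gave 1.42, 1.53 and 1.47, of which the first 2 were called. For the brightest, the difference was 0.71 in the unscaled values (adjusted p = 0.0827 in limma) and 1.14 with arrays centred on their medians (adjusted p = 0.0931 in limma), past the threshold in neither. The S100a13 probe set at 1.53 kept its call in the unscaled values (0.85) and lost it with arrays centred on their medians (1.29). A second probe set of S100a14 gave -0.59. The differences of S100a3 and Anxa7 changed sign in the unscaled values, to -0.09 and -0.15. S100a1, S100a16, S100b and S100g lay below the filter. S100a8 and S100a9, the calgranulins of neutrophils and monocytes, lay below it too, with at most 11.8 and 9.59 on any array. The S100a genes form a cluster on chromosome 3, where S100a5 is the 1 gene between S100a4 and S100a6 in the GRCm38.p6 gene table. S100a5 lay below the filter, with 24.7 at 72 h, 5.76 and 3.15 at 48 h with IL-21, and 10.9 and 14.9 at 48 h without it.

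Among the other annexins, 5 were on the array and Anxa4 and Anxa7 passed the filter, with differences at 72 h of 1.03 (SE 0.33) and 0.37 (SE 0.39), neither called in limma, while Anxa3, Anxa8 and Anxa10 lay below the filter. Of 6 other genes of the gelsolin family 4 passed the filter, and Avil and Vil1 did not. Capg, a protein that caps actin filaments without cutting them, was higher at 72 h by 1.22 (SE 0.20, adjusted p = 0.0211 in limma), with 458 at 72 h, 196 and 197 at 48 h with IL-21, and 195 and 159 at 48 h without it. The call was lost in the unscaled values (0.53, adjusted p = 0.188 in limma) and with arrays centred on their medians (0.96, adjusted p = 0.0858 in limma). The 2 dimmer probe sets of Capg gave 0.60 and 0.74 and were not called. Flii, Svil and Scin had differences of 0.23, 0.06 and -0.44 for their brightest probe sets and were not called, and those of Flii and Svil changed sign in the unscaled values (Svil also with arrays centred on their medians).

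The partner list held 15 kept genes, of which 1 was called higher and 1 lower at 72 h, where 4.04% and 7.12% of all probe sets were. Nothing is read about the list from so few calls. Ahnak, the scaffold joined to the Anxa2 and S100a10 complex, rose by 2.47 (SE 0.23, adjusted p = 0.00928 in limma), with a signal of 378 at 72 h, 66.8 and 69.4 at 48 h with IL-21, and 63.0 and 77.0 at 48 h without it. Cacybp, the S100a6-binding adaptor, fell by 2.16 (SE 0.28, adjusted p = 0.0135 in limma), with 34.1 at 72 h, 167 and 138 at 48 h with IL-21, and 168 and 120 at 48 h without it. Both kept their direction and their call in all 4 scalings. Sdcbp, or syntenin, differed by 0.53 (SE 0.45) and was not called, and Plat lay below the filter. The largest differences of this list with IL-21 at 48 h were 0.53 for Calm2 and -0.59 for S100pbp, neither of which passed.

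Of 60 kept actin and cortex genes, 10 were called higher and 1 lower at 72 h (1 probe set a gene), with a median log2 difference of 0.30, against 4.04% and 7.12% of all probe sets. With arrays scaled on the hybridisation controls 11 were called higher and 1 lower, where 655 and 251 of the 7453 probe sets were. With arrays centred on their medians 2 were called higher and 1 lower, where 128 and 521 of the 7453 probe sets were. In the unscaled values 1 was called higher and 11 lower, where 101 and 2027 of the 7453 were. Their median there was -0.35, where that of all probe sets was -0.58. Myo1f, a class I myosin of leukocytes, had the largest increase (2.78, SE 0.28, adjusted p = 0.00928 in limma), and Marcksl1, a membrane-bound actin regulator, the largest decrease (-1.96, SE 0.35, adjusted p = 0.0246 in limma). Tmsb4x, which encodes the actin-monomer-binding thymosin beta 4, was higher by 0.57 (SE 0.13, adjusted p = 0.0472 in limma), but was not called in the unscaled values (0.17) or with arrays centred on their medians (0.61). The genes of actin itself and its most abundant regulators had small differences that were not called in the normalised values. They were -0.35 for Actg1, -0.20 for Cfl1 (cofilin), 0.18 for Tmsb10, 0.27 for Pfn1 (profilin), 0.32 for Lcp1 (L-plastin), 0.52 for Coro1a, 0.31 for Ezr and 0.59 for Msn. Their signs depended on the scaling. In the unscaled values Actg1 (-0.74, adjusted p = 0.0109 in limma) and Cfl1 (-0.62, adjusted p = 0.0230 in limma) were called lower. The brighter Actb probe set differed by -0.16 at 72 h and by -0.68 with IL-21 at 48 h. With 1 probe set a gene, that was the lowest of the list at 48 h, and Limk1 was the highest there at 0.61. The dimmer Actb probe set differed by 0.69 at 72 h and by -0.72 with IL-21 at 48 h, neither of them called. None of the 60 genes passed limma with IL-21 at 48 h, with 5 at an unadjusted p under 0.05, where 4.39% of all probe sets reached it. In the unscaled values 16 of the 60 passed at 48 h, where 696 of the 7453 probe sets did.

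**Figure D4:**
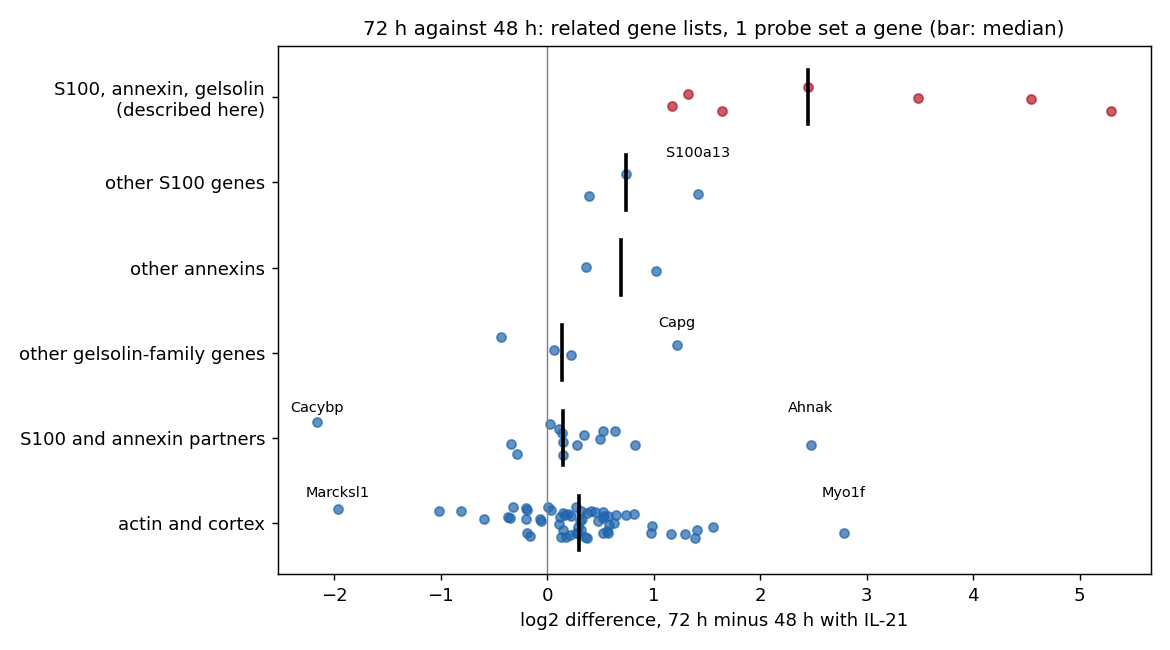
Log2 difference between 72 and 48 h with IL-21 for the brightest kept probe set of each gene, in rows for the 7 genes described here and 5 related lists, with a black bar at each median. The 7 genes lie between 1.18 and 5.29 with a median of 2.45, while the medians of the other lists lie between 0.14 and 0.74, a contrast that the choice of the 7 genes by their 72 h values built in.

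Several of these genes are also abundant in other cells, so markers of those cells were summed (1 probe set a gene). Myeloid and dendritic cell markers, 14 of 15 listed on the array and 7 kept, summed to 386 at 72 h, 305 and 254 at 48 h with IL-21, and 292 and 305 at 48 h without it. H2-Ab1 was the 1 myeloid and dendritic cell marker called higher at 72 h (1.24, SE 0.23, adjusted p = 0.0256 in limma). Its call was lost in the unscaled values and with arrays centred on their medians. Cd68 and Itgax were above all 48 h arrays without passing the test, with 55.4 for Cd68 and 41.3 for Itgax at 72 h against at most 25.3 and 23.8 at 48 h (adjusted p = 0.0845 and 0.164 in limma), and Cd14 and both Csf1r probe sets were below them. Itgam lay below the filter, with 14.8 at 72 h and at most 9.17 at 48 h, and Lyz2 was at most 2.99 on any array. Fibroblast and endothelial markers, 6 of 6 on the array and 3 kept, summed to 305 at 72 h, 281 and 207 at 48 h with IL-21, and 287 and 242 at 48 h without it, with Col3a1 and Dcn at most 14.3. Of the kept markers of this list, Pecam1 had 42.6 at 72 h, 10.1 and 21.1 at 48 h with IL-21, and 36.8 and 29.9 at 48 h without it. The brighter Col1a2 probe set had 213 at 72 h, 204 and 155 at 48 h with IL-21, and 195 and 146 at 48 h without it. Neither passed limma at 72 h (adjusted p = 0.115 for Pecam1 and 0.60 for Col1a2). The suffix of this Col1a2 set marks relaxed probe selection rules, so its transcript is uncertain, and it gave most of the summed signal. The other Col1a2 probe set lay below the filter, with 4.34 at 72 h and between 3.05 and 6.20 at 48 h. Platelet and erythroid markers, 4 of 7 on the array and 2 kept, summed to 55.4 at 72 h, 70.9 and 52.0 at 48 h with IL-21, and 62.6 and 81.7 at 48 h without it. B cell markers, 6 of 7 on the array and 5 kept, summed to 364 at 72 h, 182 and 186 at 48 h with IL-21, and 206 and 199.6 at 48 h without it. Cd37 alone had 254 at 72 h, 70.9 and 93.9 at 48 h with IL-21, and 108 and 112 at 48 h without it. It was the 1 B cell marker called higher at 72 h (1.64, SE 0.25, adjusted p = 0.0176 in limma), and it was called in all 4 scalings. Of the 5 kept B cell markers, 3 had a positive difference at 72 h and 2 a negative one. Cd4 lay between 9.39 and 32.6 and the 1 NK cell marker on the array between 1.98 and 10.2, both highest at 72 h. Their part in the differences of the S100, annexin and gelsolin genes was not tested.

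By root mean square distance between log2 profiles over the 5 arrays, centred on the mean of the 4 arrays at 48 h, the named genes most like Gsn were Cyp2s1 (0.319), Ctsw (0.631), Prr5 (0.696), Mt1 (0.745) and Matk (0.745). Ctsw encodes a cathepsin of cytotoxic lymphocytes, with a signal of 434 at 72 h, 31.2 and 78.3 at 48 h with IL-21, and 24.8 and 97.4 at 48 h without it. Mt1, a metallothionein, had 397 at 72 h, 32.2 and 100 at 48 h with IL-21, and 22.8 and 91.7 at 48 h without it. Like Gsn, both had a 72 h array above all others and second replicates above first ones at 48 h, which is what this measure selects.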

How the data were processed

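The authors deposited 1 table of probe set signals, linear intensity values; the submitters' processing notes name MAS5, with no version, target or detection calls. The trimmed means of these deposited intensity columns differed, which a shared scaling target would have removed. Columns were matched to samples by name, and groups came from the titles. Gene names came from the platform's probe annotation, updated through Entrez identifiers (10817 of 10833 singly named probe sets matched); 396 probe sets with several genes and 1193 with none stayed unnamed.

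An offset of 1.53 (10th percentile of the signals) was added, log2 was taken, arrays were quantile-normalised, and probe sets with a mean above the 40th percentile were kept (7453 of 12422). Directions are therefore relative to the bulk of probe sets. limma 3.58.1 in R 4.3.3 fitted 3 group means to the 5 arrays (2 residual degrees of freedom, variance trend on signal), two-sided, adjusted by Benjamini-Hochberg across the 7453 probe sets at a threshold of 0.05. The number of arrays limits the precision. The procedure was tested on simulated data with independent arrays of equal spread. That cannot show how it behaves with deviations shared by replicate number or with another spread at 72 h. The genes described and the related lists were chosen with earlier results of these data known. Named genes were all those described, every gene measured of the family lists, fixed examples and the most extreme gene of the actin and partner lists, and the 5 genes nearest to Gsn. Alternatives covered the offset, scaling, filter, variance trend, replicate block, left-out arrays, 1 probe set a gene and all 48 h arrays as 1 group.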

Additional observations from a re-analysis of the deposited data

How the results depend on the processing

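At 72 h, the differences of Gsn, S100a4, S100a6, S100a10 (the brighter probe set), Anxa2, Anxa5 and Anxa6 were positive under every alternative run. The count of called probe sets among the 8 was 0 without the variance trend and lay between 0 and 6 when each 48 h array was left out, with 0 reached without either array with IL-21. It was 4 in the unscaled values, 4 with arrays centred on their medians and 7 with arrays scaled on the hybridisation controls. In this last scaling S100a6 was called with an SE of 0.39, against 2.44 in the normalised values. The count over all probe sets was 832, of which 36.2% were higher; it was 2128 in the unscaled values (4.75% higher), 1860 with the replicate block (46.2%), 0 without the variance trend, and between 0 and 465 with 1 array left out. The share called higher was 19.7% with arrays centred on their medians and 72.3% with arrays scaled on the hybridisation controls. With IL-21 at 48 h the count over all probe sets was 0, but 696 in the unscaled values, 38 after scaling on the controls and 11 with the replicate block, and it stayed at 0 for each array left out. Among the 8 probe sets 1 passed in the unscaled values, the brighter S100a10 set (0.92, adjusted p = 0.0489 in limma), where the median of all probe sets was 0.57; its adjusted p was between 0.0489 and 0.999 over the alternatives. Deviations of same-numbered arrays had a correlation of 0.361, and no label pairs them. In the fit with the replicate block the 72 h difference of S100a6 was 7.73 (SE 0.23) and 7 of the 8 were called. That fit placed the 72 h array with the first replicates by its number, although no label ties it to them. The value of 7.73 depends on this placing, and its SE does not cover it. The count carries no weight since the genes were chosen with the 72 h values known. At 48 h none of the 8 passed in that fit, the smallest adjusted p in limma being 0.174 for Anxa2. Dim signals at 48 h limit the size of the S100a4, S100a6 and Gsn differences.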
